A study of Mus musculus with 2 samples.

Results

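The 41 genes described here are the oocyte and meiosis genes of the mouse, and the question is how open their chromatin was in whole ovary. They were taken from a named list and looked up in the GENCODE M21 annotation on build mm10, where all 41 were found among 21755 protein-coding genes on the autosomes and X. A gene was called open where each of 2 libraries had a peak of the authors' longer peak list within 500 bp of any of its annotated starts. A wider window, the gene body plus 10 kb on either side, was used to count regions with a peak in both libraries, called shared regions. A start with another gene's start within 500 bp was recorded as shared, because a peak there belongs to both genes.

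The samples form 1 group, whole ovary of adult B6CASTF1/J females aged 18 to 20 months, a first-generation cross of C57BL/6 and CAST/EiJ mice. DNase-seq marks open chromatin by where the nuclease DNase I cuts the DNA of nuclei. The 2 libraries are labelled biological replicates 1 and 2 and come from separate biosamples under a single donor entry, and the labels do not say whether the biosamples are different animals. With 1 group there is no contrast between conditions and no test was made, so each value is given per library, with the mean and SD of 2 libraries where a mean is useful. The longer peak lists held 95898 peaks in replicate 1 and 83982 in replicate 2, and 64875 regions were shared. The peak strength was scaled for depth by the authors to an unstated target, so the read depth behind a value is unknown. In a whole tissue, a weak or missing peak cannot tell fewer cells of a type from less open chromatin per cell.

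Mouse oocytes pass through meiotic prophase before birth, pair and recombine their chromosomes, and then stay arrested inside follicles until ovulation. While a follicle grows, its oocyte secretes the zona pellucida and growth factors and stores proteins for the embryo. In other adult cells many germline genes are held silent, those with CpG-rich starts by DNA methylation and by a Polycomb complex, PRC1.6, that contains MAX, MGA and E2F6. Among markers of somatic ovarian cells, 8 of 9 for granulosa cells (88.9%) and 4 of 6 for theca and luteal cells (66.7%) had a start open in both libraries, where the share over all protein-coding genes was 62.3%. Of the 9 genes used as oocyte markers, all of them members of the list, Gdf9 and Dazl were open and 7 had no peak at a start in either library. The open start of Gdf9 is shared with Uqcrq. None of the 4 macrophage markers was open in both libraries, and 2 of 3 Sertoli cell markers, Sox9 and Sox8, were open, both at CpG-rich starts shared with another gene.

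Of the 41 genes, 13 were open in both libraries (31.7%), against 13545 of all 21755 protein-coding genes (62.3%). A further 3 genes had a peak at a start in 1 library (7.32%, against 4.10% of all protein-coding genes), and 25 had none in either (61.0%). Replicate 1 alone had peaks at 15 of the 41 genes, where the share over all protein-coding genes was 64.6%, and replicate 2 alone at 14, where it was 64.0%. The open genes were not spread evenly over roles. Genes of recombination were open in 5 of 6 cases and genes of the chromosome axis and cohesin in 3 of 8, while the zona genes and the oocyte transcription factors held none of 3 and none of 5. Over the 22 zona, growth factor, transcription factor and maternal genes, 4 were open (18.2%), and over the 14 genes of axis, cohesin and recombination, 8 were open (57.1%).

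**Figure D1:**
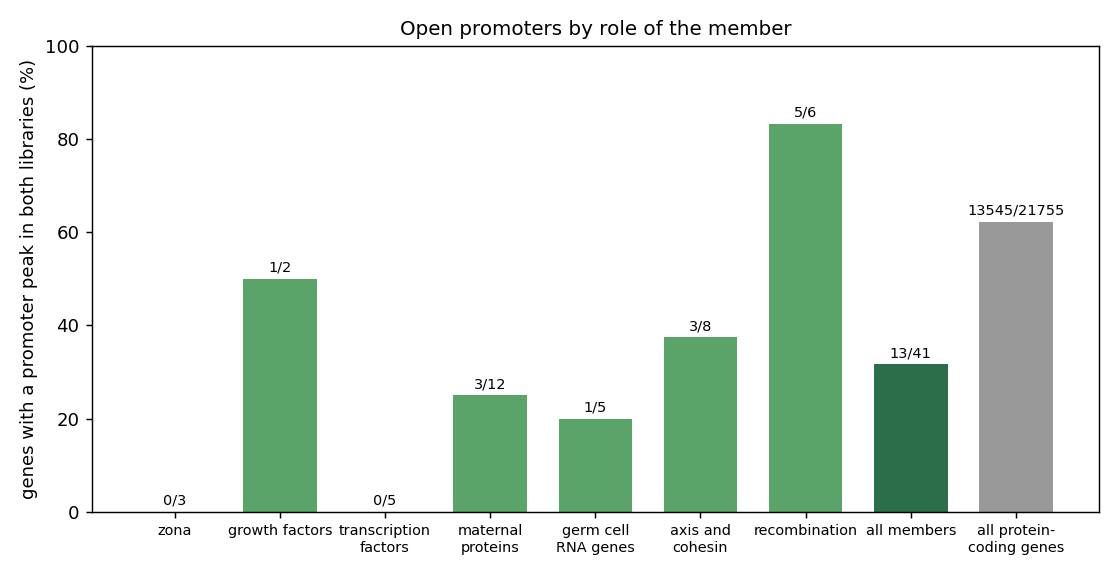
Genes open in both libraries (y axis, %) for each role among the 41 genes, for all 41 and for all protein-coding genes. Bars start at 0 and carry the counts; recombination genes stand highest with 5 of 6, the 41 genes together reach 31.7%, and all protein-coding genes 62.3%.

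The sequences of the open starts are shown first, because the protected stretches in them, the footprints, are what the data add to the annotation. A footprint is a short run of bases with few cuts inside an open region, as a bound protein leaves it. Below are stretches from the open regions of Gdf9, Tle6, Msh5, Dazl and Npm2, read from assembly GRCm38.p6, the assembly that UCSC names mm10, each 5′ to 3′ on the strand of the gene. Capitals mark bases inside footprints of both libraries. The Gdf9 stretch lies at chr11:53430881-53431180 on the plus strand, and the other 4 on the minus strand, at chr10:81601044-81601180 for Tle6, chr17:35046721-35047000 for Msh5, chr17:50292847-50292876 for Dazl and chr14:70659239-70659268 for Npm2. Dazl and Npm2 are cut to 30 bases around 1 footprint.
Gdf9: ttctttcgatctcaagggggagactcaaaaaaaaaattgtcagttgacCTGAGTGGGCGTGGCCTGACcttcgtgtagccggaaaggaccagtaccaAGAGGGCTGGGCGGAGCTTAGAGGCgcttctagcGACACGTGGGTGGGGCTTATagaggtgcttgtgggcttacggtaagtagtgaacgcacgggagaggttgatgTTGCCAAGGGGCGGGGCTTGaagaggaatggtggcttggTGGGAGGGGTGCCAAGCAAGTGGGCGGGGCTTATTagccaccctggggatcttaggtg
Tle6: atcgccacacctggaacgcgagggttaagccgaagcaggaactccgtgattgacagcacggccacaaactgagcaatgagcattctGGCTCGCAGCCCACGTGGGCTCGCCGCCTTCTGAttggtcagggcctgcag
Msh5: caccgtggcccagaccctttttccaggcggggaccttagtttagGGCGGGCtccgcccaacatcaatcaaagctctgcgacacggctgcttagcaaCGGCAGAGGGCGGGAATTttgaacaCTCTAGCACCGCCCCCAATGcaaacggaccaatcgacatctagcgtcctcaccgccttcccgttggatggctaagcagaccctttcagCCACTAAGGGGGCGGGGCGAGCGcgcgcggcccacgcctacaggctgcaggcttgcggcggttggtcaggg
Dazl: ggaaaggacCCGGAGGGCGTggttatcggg
Npm2: gcctttGTTCCACGCACGCGCAGTaaggac

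The egg coat genes Zp1, Zp2 and Zp3, which encode glycoproteins of the zona pellucida, had no peak at any start in either library. Zp1 (chr19:10914287-10920632) had an observed-over-expected CpG ratio of 0.11 in the 500 bp either side of its 5′ end, the lowest of the 41 genes, and Zp2 (chr7:120126772-120145291) and Zp3 (chr5:135980099-135988624) had 0.25 and 0.41. All 3 still had shared regions in the wider window. Those of Zp1 lay at -3.7 kb, upstream of the 5′ end, with a signal of 0.463 in replicate 1 and 0.836 in replicate 2, and 11.4 and 15.2 kb downstream, past the end of the gene. The farthest was the strongest, with 1.28 in replicate 1 and 2.06 in replicate 2. Zp2 had regions 20.3 kb downstream (1.25 in replicate 1 and 0.821 in replicate 2) and 27.6 kb downstream (0.937 and 0.875 in the same order). Near Zp3 the stronger region, with 3.74 in replicate 1 and 3.17 in replicate 2, lies at the start of Dtx2.

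Gdf9, a growth factor that oocytes send to the granulosa cells around them, had the strongest start of the 41 genes. Its signal was 10.2 in replicate 1 and 16.9 in replicate 2 (mean 13.5 ± 4.71 SD, n = 2), and 95.5% of the open protein-coding genes had a lower mean. The peak overlaps the annotated 5′ end of Gdf9 (chr11:53431023-53437904), 192 bp from the start of Uqcrq, a respiratory chain gene that runs the other way. The transcript that begins there is annotated as non-coding. The start of the coding Gdf9 transcript lies 2276 bp downstream and had no peak in either library, nor did another start at 1819 bp. In the stretch before these, 716 to 858 bp downstream of the 5′ end, replicate 2 alone had a peak of 0.696. Among open protein-coding genes, 1.71% had no peak at a coding transcript's start in either library, and of the 13 open genes here Gdf9 and Npm2 were in that position. Counted at starts of coding transcripts alone, 11 of the 41 genes were open in both libraries, against 60.9% of all protein-coding genes. Bmp15, the partner of Gdf9 on the X chromosome, had no peak of either library anywhere in its gene body plus 10 kb.

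That Gdf9 region holds 5 footprints seen in both libraries, with midpoints at -83, -34, -3, 71 and 114 bp from the 5′ end. The core GGGNGG followed by any base and GCTT, chosen after these footprints had been read, matches 4 times in the 300 bp, and each match overlaps a footprint of both libraries. Where its first N is C it contains the GC box GGGCGG. In the 300-base window from 250 bases before to 50 after the 5′ end, Gdf9 has 2 matches; 21 genes have at least 2, and 2.93% of all genes have any. The third footprint also contains CACGTG, an E-box, at -6 bp.

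**Figure D2:**
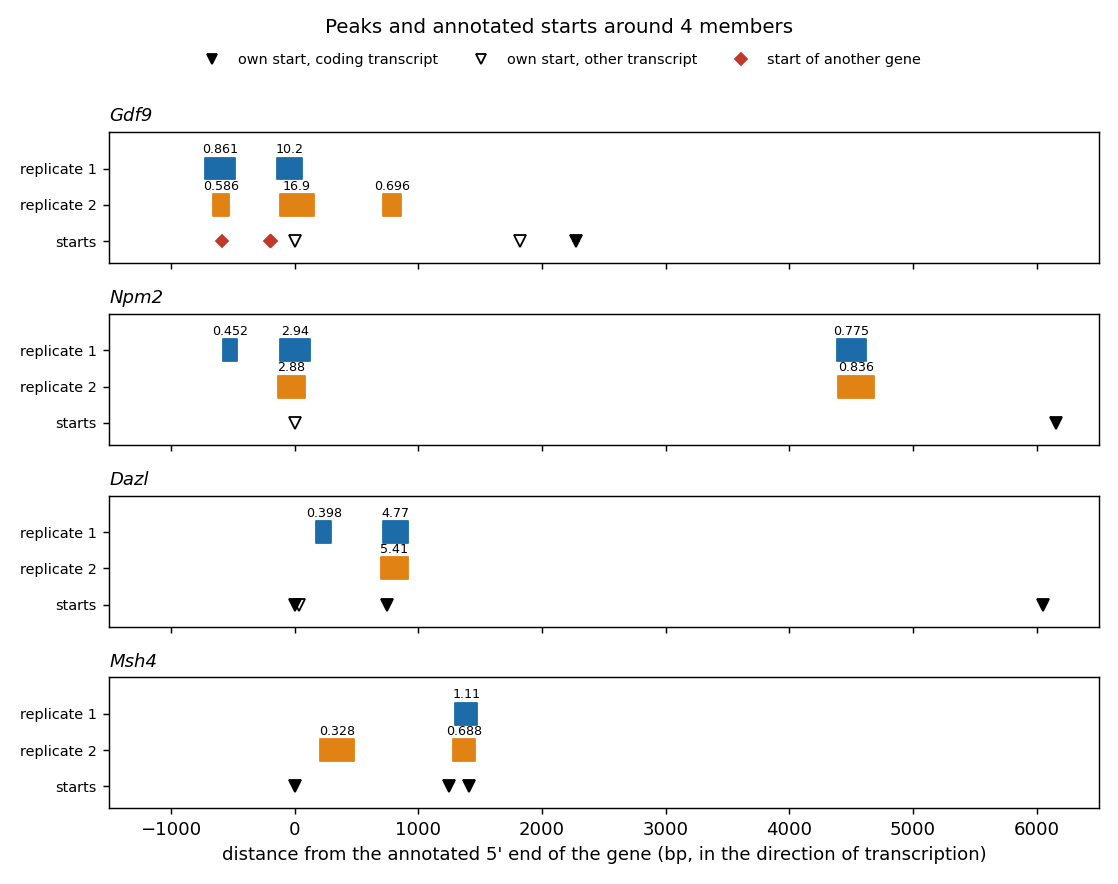
Peaks of each library (boxes, with the authors' signal above) and annotated starts (triangles, filled for coding transcripts; diamonds for other genes) by distance in bp from the 5′ end of 4 genes, in the direction of transcription. In Gdf9 and Npm2 the peaks at 10.2 and 16.9 and at 2.94 and 2.88 sit at the start of a transcript not annotated as protein-coding, and in Dazl and Msh4 the peaks seen in both libraries sit at starts inside the gene.

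The oocyte transcription factors had no start open in both libraries. Figla, which drives the zona genes, and Nobox and Sohlh2 had none in either library. Sohlh1 (chr2:25842995-25847248), a helix-loop-helix factor of early oocytes, had 0.818 in replicate 1 and no peak in replicate 2. Lhx8 (chr3:154306294-154330659), a LIM homeodomain factor, had 0.484 in replicate 1 and no peak in replicate 2, and its start lies 162 bp from that of AI606473. Neither peak is in the authors' shorter list. Sohlh1 also had shared regions at -5.6 kb, upstream (1.02 in replicate 1 and 1.48 in replicate 2) and 10.8 kb downstream (1.49 in replicate 1 and 0.703 in replicate 2), the only shared regions around these 5 factors.

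Among the 12 maternal genes, 3 were open, namely Tle6, Npm2 and Ooep. Tle6 and Ooep encode members of the subcortical maternal complex of the egg. Tle6 (chr10:81590904-81601073) had 8.3 in replicate 1 and 9.5 in replicate 2 (mean 8.9 ± 0.852 SD, n = 2), close in both libraries, and 82.9% of open genes had less. It has 14 annotated starts and 7 shared regions in its window, the most of the 41 genes; 4 of the 7 are at its own starts. Upstream, at the start of BC025920, a region had 6.84 in replicate 1 and 9.93 in replicate 2. The 2 stretches with footprints in both libraries each span CACGTG, and the one printed above lies at the 5′ end.

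Npm2 encodes a nucleoplasmin that helps unpack sperm chromatin after fertilisation. It had 2.94 in replicate 1 and 2.88 in replicate 2 (mean 2.91 ± 0.0387 SD, n = 2), the smallest SD of the 13 open genes in the list. The peak is at the 5′ end of the gene (chr14:70647302-70659244), where a transcript annotated as non-stop decay begins inside the 3′ UTR of Xpo7. The coding transcript starts 6160 bp downstream and had no peak there. The 1 kb around the 5′ end has 1 other match in the genome, 354 bp long at 96.3% identity, and Npm2 was the only one of the 41 genes with such a match of 200 bp or more at 95% or higher, so its signal may include reads from the copy. Ooep (chr9:78376109-78378725) was the weakest of these 13, with 0.495 in replicate 1 and 0.383 in replicate 2. Of all open protein-coding genes, 1.3% had less. Its replicate 2 peak is not in the shorter list, and that library had no footprint there, against 2 in replicate 1.

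The other 9 maternal genes had no peak at a start in either library. They include Nlrp5 and Khdc3 of the same subcortical complex, Padi6, which the egg's cytoplasmic lattices need, Dppa3, which guards methylation in the zygote, and Mos, the kinase that holds the egg in arrest. Oosp1, Nlrp5, Nlrp2 and Nlrp14 had no peak of either library in the whole gene body plus 10 kb. Mos (chr4:3870657-3872105) had a shared region at -3.2 kb, upstream, with 2.11 in replicate 1 and 2.31 in replicate 2, and a weak one 1.2 kb into the gene with 0.334 in replicate 1 and 0.344 in replicate 2. Khdc3 had a weak region 1.7 kb into the gene, with 0.571 in replicate 1 and 0.399 in replicate 2, and Nlrp4f one beyond its end, with 0.506 in replicate 1 and 0.352 in replicate 2.

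Of 5 germ cell RNA genes, Dazl was open. Dazl (chr17:50279395-50293636) encodes an RNA-binding protein that controls translation in germ cells. Its signal was 4.77 in replicate 1 and 5.41 in replicate 2 (mean 5.09 ± 0.452 SD, n = 2), above that of 59.8% of open genes. The peak is not at the 5′ end but about 0.8 kb inside the gene, at an internal coding start 744 bp downstream. Near the 5′ end itself replicate 1 had a peak of 0.398 and replicate 2 had none. Stk31 had 0.32 at a start in replicate 2 and none in replicate 1, and a shared region 16.7 kb into the gene with 0.409 in replicate 1 and 0.516 in replicate 2. Ddx4, the vasa helicase, Gtsf1 and Mael, both of the transposon defence, had no peak at a start. Gtsf1 had none in its whole window, and the region near Ddx4, with 4.52 in replicate 1 and 5.14 in replicate 2, lies at the start of Slc38a9.

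In the list, the 3 open genes of the 8 for the meiotic chromosome axis and cohesin were all cohesin genes. Some further meiosis genes did not follow that pattern. The 2 of the 8 with a shared start were both open, and of the 6 without one, 1 was open (16.7%). Why these 3 were open was not tested. The meiosis-specific cohesin subunits Stag3, Rec8 and Smc1b were open, and the synaptonemal complex genes Sycp1, Sycp2, Sycp3 and Syce1 and the axis gene Hormad1 were not. Stag3 (chr5:138280240-138312393) had 3.76 in replicate 1 and 3.85 in replicate 2 (mean 3.81 ± 0.0681 SD, n = 2), but a start of Gpc2 lies 235 bp away and Gm43720 also starts within 500 bp, both on the other strand. Smc1b (chr15:85064689-85131964) had 1.19 in replicate 1 and 1.41 in replicate 2 (mean 1.3 ± 0.155 SD, n = 2), 114 bp from the start of Ribc2 on the other strand. Rec8 (chr14:55618037-55625395), whose start is not shared, had 0.603 in replicate 1 and 0.758 in replicate 2 (mean 0.68 ± 0.11 SD, n = 2). Of all open genes, 5.2% had less. Outside the list, Rad21l, also a cohesin gene, had no peak at a start, nor did the synaptonemal complex genes Syce3 and Tex12. Syce2, of the same complex, was open with 1.58 in replicate 1 and 1.48 in replicate 2. Hormad2 was open with 0.441 in replicate 1 and 0.446 in replicate 2.

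The single footprint of Smc1b that both libraries share overlaps a palindrome, GTTGC and GCAAC set 3 bases apart, of the form that RFX proteins bind. It is shown here at chr15:85132041-85132100 on the minus strand of GRCm38.p6, with the palindrome in capitals.
Smc1b: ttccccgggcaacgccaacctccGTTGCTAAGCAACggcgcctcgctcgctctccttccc
The palindrome was noticed after the sequence had been read. It lies at -107 bp from the Smc1b 5′ end, directly beside the start of Ribc2, which is 114 bp upstream of that end. It occurs in the 300-base window of 55 protein-coding genes (0.253%), and Smc1b is the only one of the 41.

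Recombination genes were the most often open of the roles in the list, with 5 of 6. The exception in the list was Spo11, which makes the DNA breaks that start recombination. The 5 open genes have a CpG ratio of at least 0.6 at the 5′ end, where Spo11 has 0.23. Of all protein-coding genes with a ratio of at least 0.6, 93.0% were open. Msh5 (chr17:35028605-35046745), which with Msh4 stabilises crossover intermediates, had 7.4 in replicate 1 and 10.3 in replicate 2 (mean 8.85 ± 2.05 SD, n = 2), above 82.7% of open genes. Of its 4 footprints seen in both libraries, 1 overlaps TCCCGCC, the E2F motif, and others overlap GC boxes. Msh4 (chr3:153857149-153906138) was weaker, with 1.11 in replicate 1 and 0.688 in replicate 2, a log2 ratio of -0.69, replicate 2 over replicate 1, the lowest of the 13. Its peak is at coding starts 1247 and 1407 bp inside the gene, and at the 5′ end only replicate 2 had a peak, of 0.328. Among the 13 open genes, Dazl and Msh4 had their strongest peaks more than 500 bp from the 5′ end in both libraries. So did 13.3% of all open protein-coding genes.

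Mlh3 (chr12:85234520-85270599), which cuts crossover intermediates, had 1.93 in replicate 1 and 2.31 in replicate 2. Meiob (chr17:24804289-24839788), a single-strand DNA-binding protein of recombination, had 1.73 in replicate 1 and 1.2 in replicate 2. Dmc1 (chr15:79561497-79605109), the meiotic strand-exchange recombinase, had 0.495 in replicate 1 and 0.641 in replicate 2. These 3 starts are not shared, and their means of 2.12 ± 0.268, 1.47 ± 0.374 and 0.568 ± 0.103 (SD, n = 2 each) exceeded those of 28.0%, 18.8% and 3.2% of open genes. Spo11 had no peak at a start, and its strongest region, with 9.59 in replicate 1 and 10.5 in replicate 2, lies 22.4 kb downstream at the start of Rae1.

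**Figure D3:**
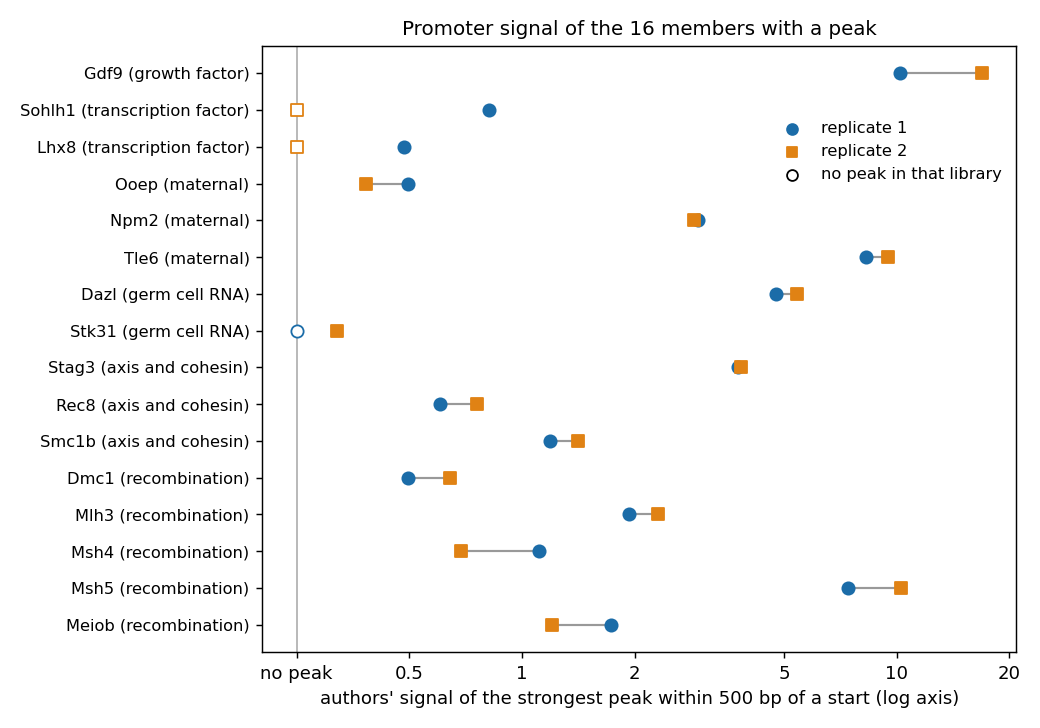
Authors' signal (x axis, log scale) of the strongest peak within 500 bp of a start for the 16 genes with a peak in at least 1 library, circles for replicate 1 and squares for replicate 2, open symbols where a library had no peak. Gdf9, Tle6 and Msh5 lie between 7.4 and 16.9 in both libraries, and Ooep, Dmc1 and Rec8 stay below 0.8.

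The 13 open genes were weaker than open genes in general. Their median mean signal was 2.12 (lowest 0.439, highest 13.5), against 4.03 over all 13545 open protein-coding genes. The medians were 1.93 against 3.96 in replicate 1 and 2.31 against 4.06 in replicate 2. Between the libraries the log2 ratio of the 13, replicate 2 over replicate 1, ran between -0.69 for Msh4 and 0.73 for Gdf9. In 10 of the 13 the strongest peaks of both libraries are also in the authors' shorter list (76.9%), against 93.0% of open protein-coding genes, and the other 3 are Ooep, Rec8 and Dmc1. Each library had a footprint within 500 bp of a start at 12 of the 41 genes (29.3%), against 59.7% of all protein-coding genes. Ooep was the open gene without, and among open protein-coding genes 95.8% had them. In this count the footprints of the 2 libraries need not overlap. Rec8 and Dmc1, like Ooep, had no footprint that overlapped between the libraries in their strongest peaks. The open genes had a median of 3 footprints in replicate 1 and 5 in replicate 2, against 5 and 6 over all open genes. These are descriptions of 13 genes and were not tested.

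The 25 closed genes were closed to the limit of the files. Within 500 bp of every start, none of the 25 had a base whose cut rate had a false discovery rate below 0.05 in either library. Of all 7317 protein-coding genes without a promoter peak, 97.4% had no such base either, so this is the usual state of a gene without a peak. Because rates at or above 0.05 are not listed, weaker cutting could not be measured. In the gene body plus 10 kb, 8 genes had no peak of either library (19.5%, against 15.7% of all protein-coding genes), namely Bmp15, Oosp1, Nlrp5, Nlrp2, Nlrp14, Gtsf1, Sycp1 and Syce1.

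Shared starts made a part of the count. Of the 41 genes, 7 have a start of another gene within 500 bp (17.1%), as do 4951 of all 21755 protein-coding genes. Of these 7, 4 were open (57.1%), Gdf9, Stag3, Smc1b and Msh4, against 87.9% of all genes with a shared start. The open peak of Msh4 is not at its shared start. Of the 34 genes with no shared start, 9 were open (26.5%), against 54.7% of all such genes. The 3 of the 7 that were not open in both libraries were Lhx8, which had a peak in 1 library, Nlrp2 and Khdc3.

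The CpG content of the start divided the genes further. A start was called CpG-rich at an observed-over-expected CpG ratio of at least 0.6. By that rule 18 of the 41 genes were CpG-rich (43.9%), as were 10077 of all 21755 protein-coding genes. Of the 18, 10 were open (55.6%), against 93.0% of all CpG-rich protein-coding genes. The ratio describes the 5′ end, while a gene was called open at any start. At the 5′ end alone 8 of the 18 were open, without Dazl and Msh4. The matching share of all CpG-rich genes was not counted. Among the 23 CpG-poor genes 3 were open (13.0%), against 35.7% of all CpG-poor genes, and these 3 were Tle6, Rec8 and Ooep. Without the shared starts, 6 of 13 CpG-rich genes were open (46.2%), against 91.0% of all such genes. The median ratio of the closed genes was 0.364, against 0.176 over all closed protein-coding genes, and that of the open genes was 0.695, against 0.714 over all open ones. CpG content also ran with role: 19 of the 22 oocyte genes were CpG-poor, and 11 of the 14 axis, cohesin and recombination genes were CpG-rich. Of all 21755 protein-coding genes, 11678 were CpG-poor.

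**Figure D4:**
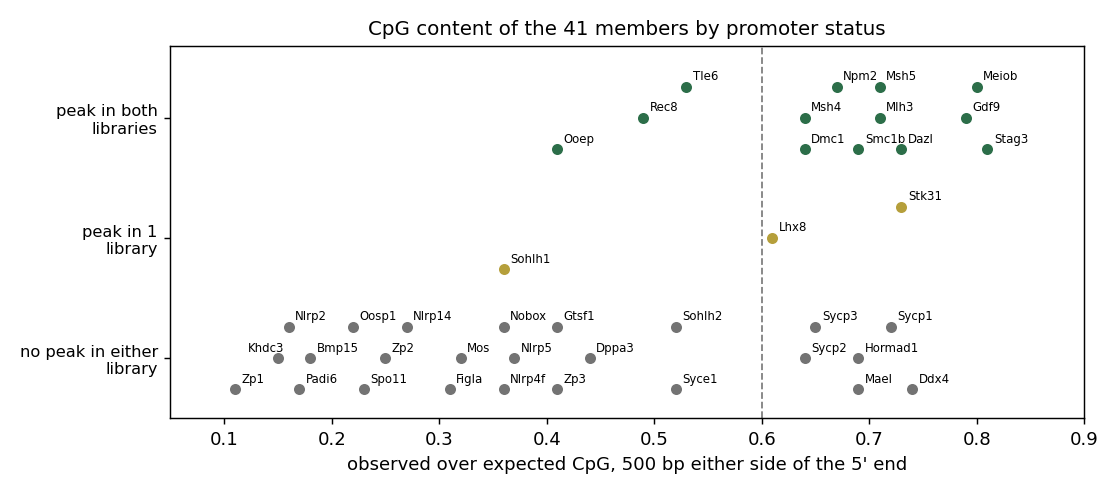
CpG ratio (observed over expected, 500 bp either side of the 5′ end, x axis) of the 41 genes in 3 rows by promoter status; the vertical offset within a row only separates labels, and the dashed line is 0.6. Ddx4, Sycp1, Mael, Hormad1, Sycp3 and Sycp2 lie right of the line without a peak in either library.

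Ddx4 (0.74), Sycp1 (0.72), Mael (0.69), Hormad1 (0.69), Sycp3 (0.65) and Sycp2 (0.64) were CpG-rich and closed in both libraries. In the 300-base window at the 5′ end, 4 of these 6 contain CACGTG (66.7%), a motif that MAX binds with its partners, against 11.1% of all CpG-rich genes and 11.8% of the CpG-rich closed ones. The E2F motif TCCCGCC, read on both strands like every motif here, is in 3 of the 6 (50%), namely Ddx4, Mael and Hormad1, against 24.5% of CpG-rich genes. Part of the windows of the 4 genes with CACGTG is shown, from GRCm38.p6, with matches to CACGTG and TCCCGCC on either strand in capitals. They were picked for holding these matches, and Sycp2 has neither motif. Sycp1 is at chr3:102936159-102936224 and Mael at chr1:166238718-166238997, both on the minus strand, and Hormad1 at chr3:95559551-95559692 and Sycp3 at chr10:88459493-88459579, both on the plus strand. The Ddx4 match lies 31 bp downstream of the 5′ end, in the 5′ UTR, and is not shown.
Sycp1: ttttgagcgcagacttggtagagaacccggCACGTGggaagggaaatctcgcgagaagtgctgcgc
Hormad1: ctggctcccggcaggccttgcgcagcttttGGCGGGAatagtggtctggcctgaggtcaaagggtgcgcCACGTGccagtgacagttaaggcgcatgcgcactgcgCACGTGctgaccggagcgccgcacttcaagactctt
Mael: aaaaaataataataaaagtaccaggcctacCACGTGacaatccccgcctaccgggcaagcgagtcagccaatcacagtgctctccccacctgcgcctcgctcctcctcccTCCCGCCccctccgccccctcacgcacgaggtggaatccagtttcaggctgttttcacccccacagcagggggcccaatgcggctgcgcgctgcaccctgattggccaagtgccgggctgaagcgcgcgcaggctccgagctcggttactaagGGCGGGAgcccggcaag
Sycp3: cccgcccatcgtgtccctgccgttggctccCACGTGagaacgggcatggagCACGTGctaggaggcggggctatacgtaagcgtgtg
Relative to the 5′ end, the CACGTG matches lie at -54 and -17 bp in Hormad1, at -43 and -22 bp in Sycp3, at -92 bp in Sycp1 and at -218 bp in Mael, and Mael has 2 TCCCGCC matches.

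Over all 41 genes, CACGTG was in 11 windows (26.8%), against 7.81% of all protein-coding genes. It was not limited to closed genes: the open genes Gdf9, Tle6 and Meiob have it, as do Sohlh1, with 3 matches, and Stk31, each with a peak in 1 library. In the strongest peaks of the open genes, 3 of 5 CACGTG matches overlapped a footprint of both libraries, in Gdf9 and Tle6. The E2F motif was in 7 windows (17.1%), against 14.2% of all genes. CCAAT, the NFY motif, was in 56.1% of the 41, against 38.9% of all genes, and GGGCGG in 43.9%, against 43.4%. In the peaks, 12 of 21 GGGCGG matches overlapped a footprint of both libraries. So did 2 of 10 CCAAT matches and 5 of 20 matches to any E-box, CANNTG. The matching shares over the peaks of all open genes were not counted. The NRF1 motif, GCGCA joined to TGCGC, was in 3 windows (7.32%, against 1.23% of all genes), the CRE core TGACGT in 7.32% against 8.71%, GATAAG in 9.76% against 6.94%, and TAATTA in 4.88% against 5.22%. None of the 41 windows held the full CRE TGACGTCA or CAAGGTCA, found in 2.45% and 1.46% of all windows.

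Shared regions were also counted away from starts. A shared region of any kind lay in the gene body plus 10 kb of 26 of the 41 genes (63.4%), against 78.9% of all protein-coding genes, with a median of 1 per gene against 2. Of the 56 regions, 17 were at an own start, 13 had the start of another gene within 500 bp, and 26 lay away from any start, around 17 of the 41 genes (41.5%), against 57.3% of all protein-coding genes, with a median of 0 per gene against 1. With only the regions near starts of other genes left out, 22 of the 41 had a region, against 70.4% of all genes, and the medians were both 1. The 26 regions had a median mean signal of 0.933 (lowest 0.339, highest 3.76), against 0.903 over all 43445 shared regions with no start within 500 bp. The strongest, 17.5 kb downstream of the Tle6 5′ end, had 2.94 in replicate 1 and 4.57 in replicate 2. Gdf9 had a region 11.1 kb downstream with 1.68 in replicate 1 and 2.81 in replicate 2, and Msh5 one 25.4 kb downstream with 3.14 in replicate 1 and 1.81 in replicate 2. Among closed genes, Sycp3 had one at -8.2 kb, upstream, with 1 in replicate 1 and 1.02 in replicate 2. Inside long gene bodies, Smc1b had one 61.2 kb from its 5′ end with 1 in replicate 1 and 0.563 in replicate 2.

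**Figure D5:**
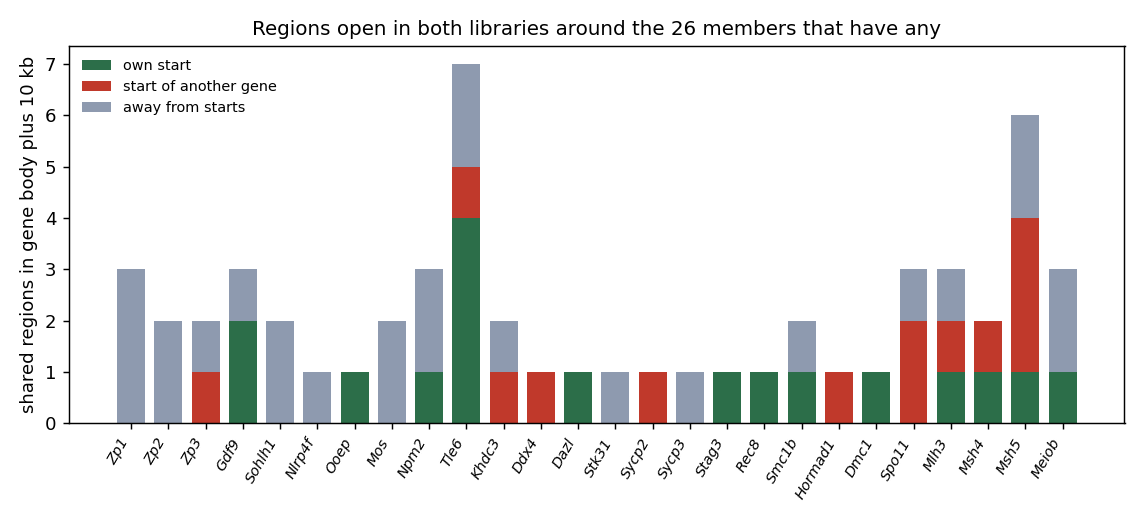
Number of regions with a peak in both libraries in the gene body plus 10 kb (y axis) for the 26 genes that have any, split into own start, start of another gene within 500 bp, and away from starts. Tle6 has 7 and Msh5 6; 13 of the 26 genes have no region at an own start.

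Several of the strongest regions near closed genes lie at the starts of neighbours. Hormad1 had 6.59 in replicate 1 and 9.1 in replicate 2 at the start of Golph3l, 29.2 kb downstream, and Khdc3 had 2.73 in replicate 1 and 3.05 in replicate 2 at that of Rsl24d1. The same holds beside open genes: Mlh3 had 11.9 in replicate 1 and 8.68 in replicate 2 at a start of Acyp1, and Msh4 had 5.94 in replicate 1 and 7.08 in replicate 2 near that of Rabggtb. The region upstream of Sycp2, with 0.581 in replicate 1 and 0.492 in replicate 2, is near the start of Fam217b.

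Other genes of the same pathways were counted in the same way, without a test, beside the share of 62.3% over all protein-coding genes. Of 34 further oocyte genes, 10 were open in both libraries (29.4%). Taf4b, a germ cell TFIID subunit, led with 10.8 in replicate 1 and 12.9 in replicate 2. Kpna7, whose start is shared with Arpc1a, and Plat came next. Of 33 further meiosis genes, 17 were open (51.5%). Among the strongest was Prdm9, which marks recombination hotspots, with 15.8 in replicate 1 and 12.8 in replicate 2. Ccnb1ip1 had 12.3 in replicate 1 and 11.8 in replicate 2, at a start shared with Rpph1 and Parp2. Of 22 piRNA and germ granule genes, 7 were open (31.8%), led by Tdrd7 with 12.6 in replicate 1 and 9.47 in replicate 2. Without a shared start were 6 of the 10 open oocyte genes, 11 of the 17 open meiosis genes and 4 of these 7. Over all protein-coding genes, 9191 of the 13545 open ones had no shared start. All 15 genes of PRC1.6 and other repressors of germline genes were open in both libraries; 13 of the 15 are CpG-rich, and 93.0% of all CpG-rich genes were open. Max was open most strongly, with 11.3 in replicate 1 and 18.3 in replicate 2.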

How the data were processed

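DNase-seq of 2 whole-ovary libraries was analysed, a single group. Per the text files deposited with the samples, all files are on build mm10 and come from each library's own alignments. How CAST reads were mapped, and with which aligner and callers, was not given in the sources used here. Peak signal, as deposited, was scaled for depth by the authors to a target that is not stated. The deposited false discovery rates (q-values) of the cut rate are listed only below 0.05, and the deposited footprints carry a constant p-value label of 0.01. No read depth, and so no counting interval, can be given.

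The longer list of each library was used, and an overlap of 1 bp was enough. Starts came from all transcripts of GENCODE M21. Promoter signal was that of the strongest peak within 500 bp of a start. CpG ratios and motifs, without mismatch and on both strands, were read from GRCm38.p6, motifs from 250 bases before to 50 after the 5′ end, and other copies were searched with BLAST 2.17.0. Python 3.11.15, NumPy 2.4.6 and pandas 2.3.3 were used. The calling of open starts was tested on simulated data. Chromosome Y was left out.

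The members, roles and gene lists were chosen with earlier results of these data known. Every member was counted. Values are given for members with a peak at a start or a shared region, and for the strongest genes of each other list, except 1 gene not reported here. The spaced palindrome of Smc1b and the repeated core of Gdf9, the Gdf9 and Smc1b stretches shown and the wider CACGTG window were chosen after seeing the data. The stretches of closed genes were picked for holding CACGTG or TCCCGCC, not by CpG ratio alone as first planned.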

Additional observations from a re-analysis of the deposited data

How the results depend on the processing

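Of the alternatives, the strictest peak choice moved the most values. With the strongest 20000 peaks of each library, 7 of the 41 genes were open, against 46.1% of all protein-coding genes. Of these 7, 5 were open at a start not shared, and the matching share over all genes was not counted. Ooep, Rec8, Smc1b, Dmc1, Msh4 and Meiob were no longer open. The same choice left 14 genes with a shared region and a median of 0 per gene, against 57.6% and 1 over all genes. The authors' shorter lists gave a median of 0 against 2. The gene body alone gave 16 genes and a median of 0, against 68.5% and 1, and 50 kb either side a median of 4 against 6. With a CpG ratio of at least 0.75, 3 genes were CpG-rich and open, but only 3 genes reach that ratio (3 of 3, against 10 of 18 at 0.6), and 95.3% of all genes that reach it were open. Over 500 bp either side of the 5′ end, a window added after seeing the data, CACGTG was near 17 of the 41 genes. That is a larger share than the 17.2% of all genes. Leaving out either replicate gave 14 to 15 open genes. In place of shared regions, the peaks of the remaining library were then counted. Their median was 1 to 2 per gene, against 3 over all genes either way.

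Counts of open genes moved less under other choices: 10 with the shorter lists (58% of all genes), 13 within 250 bp (60.7%), 15 within 2000 bp (66.2%), where Mos and Khdc3 were added, 11 at the 5′ end alone (56.6%), without Dazl and Msh4, and 11 at starts of coding transcripts (60.9%), without Gdf9 and Npm2. Ranking signal within each library changes the unit and gives no value to set beside the main one. No paired analysis was possible because the samples form a single group. The depth is unknown, so a missing peak means only that none was listed.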
